A study of Homo sapiens with 18 samples.

Results

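RBM39 and 8 other genes whose products read the 3′ splice site were followed through the RNA values of 2 human multiple myeloma cell lines. The 9 genes were taken by symbol: RBM39, its paralog RBM23, the U2AF homology motif proteins RBM17, PUF60, U2AF1, U2AF2 and UHMK1, and their partners SF1 and SF3B1. All 9 were found in each of the 4 tables, which name 16532 genes for H929, 58884 in each MM1S expression table and 20308 for the immunoprecipitation. H929 and MM1S are established lines of malignant plasma cells. In H929, 3 libraries labelled as carrying an shRNA against RBM39 were set against 3 labelled scramble. In MM1S, 2 shRBM39 libraries were set against 2 scramble libraries, and 3 libraries of cells treated with indisulam, an aryl sulfonamide, against 3 of cells given DMSO, the vehicle. RNA bound by an anti-RBM39 antibody in MM1S cells (RNA immunoprecipitation, RIP) was set against RNA pulled down with IgG, with 1 library each. The labels give no dose, time or hairpin, and name no genotype beyond the line. They do not say that libraries of a group came from separate cultures, so the p-values measure the spread between these libraries, which may be technical.

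At the 3′ end of an intron, SF1 binds the branch point, U2AF2 binds the polypyrimidine tract and U2AF1 reads the terminal AG. The U2 snRNP, with its subunit SF3B1, then takes the place of SF1 at the branch point. Several of these proteins meet through a U2AF homology motif (UHM), an RNA recognition motif turned to protein binding, which holds a short tryptophan-bearing ligand motif in SF1 or SF3B1. RBM39, RBM17 and PUF60 are UHM proteins that act beside U2AF2, and UHMK1 is a kinase with a UHM that phosphorylates SF1. Indisulam recruits RBM39 protein, and its paralog RBM23, to the DCAF15 ubiquitin ligase for degradation. RNA values summed over a gene show neither protein nor splicing, and in bulk RNA fewer cells with a transcript and less of it per cell cannot be told apart.

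Promoters are shown for U2AF1 and RBM17, which fell with indisulam, and for U2AF2, the other subunit of the U2AF heterodimer, which did not pass the test there. These 3 were picked after their values were seen. RefSeq (GRCh38.p14) held an entry for 7 of the 9 genes. Each line gives the 250 bases before the start of the gene on its own strand, 5′ to 3′, with GC boxes (GGGCGG, or CCGCCC on the other strand) in capitals. They lie at chr21:43107571-43107820 (minus strand) for U2AF1, at chr19:55654785-55655034 (plus strand) for U2AF2 and at chr10:6088784-6089033 (plus strand) for RBM17.
U2AF1: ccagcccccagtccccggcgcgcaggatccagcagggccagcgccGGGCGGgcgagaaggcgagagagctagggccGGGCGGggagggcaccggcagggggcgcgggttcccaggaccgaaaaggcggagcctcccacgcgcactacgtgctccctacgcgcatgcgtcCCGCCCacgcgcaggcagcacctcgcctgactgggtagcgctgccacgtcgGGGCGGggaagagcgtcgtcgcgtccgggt
U2AF2: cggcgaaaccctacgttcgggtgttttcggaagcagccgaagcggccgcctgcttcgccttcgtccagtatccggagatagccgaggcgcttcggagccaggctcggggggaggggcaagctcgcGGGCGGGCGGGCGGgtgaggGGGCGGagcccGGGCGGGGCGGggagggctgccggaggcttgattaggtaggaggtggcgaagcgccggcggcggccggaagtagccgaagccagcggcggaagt
RBM17: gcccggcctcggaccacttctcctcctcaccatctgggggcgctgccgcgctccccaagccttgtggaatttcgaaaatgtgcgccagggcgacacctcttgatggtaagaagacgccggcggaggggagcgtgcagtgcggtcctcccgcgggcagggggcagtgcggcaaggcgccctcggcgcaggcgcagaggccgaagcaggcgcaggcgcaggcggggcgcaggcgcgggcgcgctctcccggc
The U2AF1 stretch held 4 GC boxes, that of U2AF2 held 6 with overlapping matches counted, and that of RBM17 held 0. Of 35116 RefSeq promoters of this length, 42.6% held at least 1 GC box. CCAAT boxes (CCAAT, or ATTGG on the other strand) were in 32.0% of these promoters and in none of the 3 stretches. U2AF1L5, a near-identical copy of U2AF1, was matched here to the RefSeq entry LOC102724594. That entry lies on the same chromosome at chr21:6499249-6499498 (minus strand) and had 0 differences from U2AF1 over these bases. Whether the copy is a second gene was not tested. The first difference came after the start, at A262C, counted from 1 at the 5′ end of a window of 300 bases that begins with the printed stretch.

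The depth of the libraries and their identity bear on all that follows. Totals in H929 ran between 374512 and 428099 FPKM (fragments scaled by transcript length and library size), and the steps of low FPKM values put the other 5 libraries at 0.974 to 1.15 times the depth of scramble replicate 1. Both MM1S expression tables hold TPM (transcript values scaled to 1 fixed total per library), and TPM keeps no depth, so depth there is unknown. Indisulam replicate 3 stood apart: it correlated at 0.958 and 0.964 with the other 2 indisulam libraries, which correlated at 0.987 with each other, so results of that comparison are given with and without it. The 2 MM1S shRBM39 libraries correlated at only 0.9665 with each other, and the 2 scramble libraries at 0.9768. With 2 libraries a group, it cannot be told which of them stands apart. All 10 plasma cell markers had a mean of at least 1 in every expression group. Their sum was 8120 to 8250 FPKM in the H929 libraries labelled shRBM39 and 5170 to 5280 in those labelled scramble, 7680 to 8860 TPM with shRBM39 in MM1S and 4790 to 7010 with scramble, and 6100 to 7410 TPM with indisulam and 7700 to 8060 with DMSO. The 6 T cell markers summed to 15.7 to 18.5 FPKM in H929 libraries labelled shRBM39 and 39.3 to 47.1 in those labelled scramble, nearly all of it CD3E, with CD3D and CD8A at 0 in the shRBM39 libraries. In MM1S the T cell sum was 1.20 to 1.78 TPM with shRBM39 and 4.75 to 5.80 with scramble, and 1.03 to 1.53 TPM with indisulam and 3.16 to 4.34 with DMSO, with CD3D and CD3G at 0. Of the 5 macrophage markers only CD68 reached a mean of 1, and they summed to 13.4 to 14.7 FPKM in H929 libraries labelled shRBM39 and 25.1 to 26.9 in those labelled scramble. In MM1S the macrophage sum was 5.72 to 9.82 TPM with shRBM39 and 16.1 to 21.1 with scramble, and 7.22 to 8.33 TPM with indisulam and 9.5 to 10.6 with DMSO. Of the 4 stroma markers, ACTA2 averaged 5.60 ± 0.233 FPKM in H929 libraries labelled shRBM39 and 16.5 ± 0.664 in those labelled scramble, and the 6 B cell markers summed to 1.93 to 2.11 FPKM with the shRBM39 label (CD22 at 0) and 4.27 to 4.90 FPKM with the scramble label. The plasma cell sum was mostly JCHAIN and XBP1 in H929, and PRDM1, CD38 and SLAMF7 were lower there, at log2 differences of -0.38, -0.32 and -0.23. The part of these markers in the results was not tested.

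RBM39, the gene targeted by the hairpin, was measured first as a check of the labels. In H929 it had 38.3, 38.6 and 35.6 FPKM in the libraries labelled shRBM39, against 4.56, 4.43 and 4.51 FPKM in those labelled scramble. The groups lay far apart, and the direction goes against the label: RBM39 RNA was higher where its hairpin is named. Its log2 fold change on the log2(value + 1) scale was 2.81 (SE 0.055, limma adjusted p = 7.68e-13), and 2.94 relative to the median of all genes, which lay at -0.134. Whether labels or columns of the H929 groups were exchanged was not tested, and an exchange would turn the sign of every H929 difference given here. All directions in H929 are therefore given for the libraries as labelled.

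In MM1S, RBM39 had 64.8 and 52.2 TPM with shRBM39, against 176 and 205 TPM with scramble. The groups did not overlap, and the direction was that of the label: RBM39 fell by 1.69 on the log2 scale (SE 0.161, limma adjusted p = 0.0121). The call ended without scramble replicate 1 (adjusted p = 0.146) or without scramble replicate 2 (adjusted p = 0.13), where limma has 1 scramble library left. With indisulam, RBM39 RNA was 226.5, 217 and 149 TPM, against 189, 178 and 196 TPM with DMSO. The groups overlapped, with a log2 fold change of 0.05 (95% interval -0.32 to 0.43, limma adjusted p = 0.828). Without indisulam replicate 3, the lowest of the 6 libraries, the mean was 222 ± 6.46 TPM (SD, n = 2) with indisulam and 188 ± 8.89 TPM (SD, n = 3) with DMSO. RBM39 then passed as higher, by 0.24 on the log2 scale (limma adjusted p = 0.00818), beside a median of 0.08 over all genes tested. With all libraries it passed after quantile normalization (0.40, limma adjusted p = 0.0387).

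**Figure D1:**
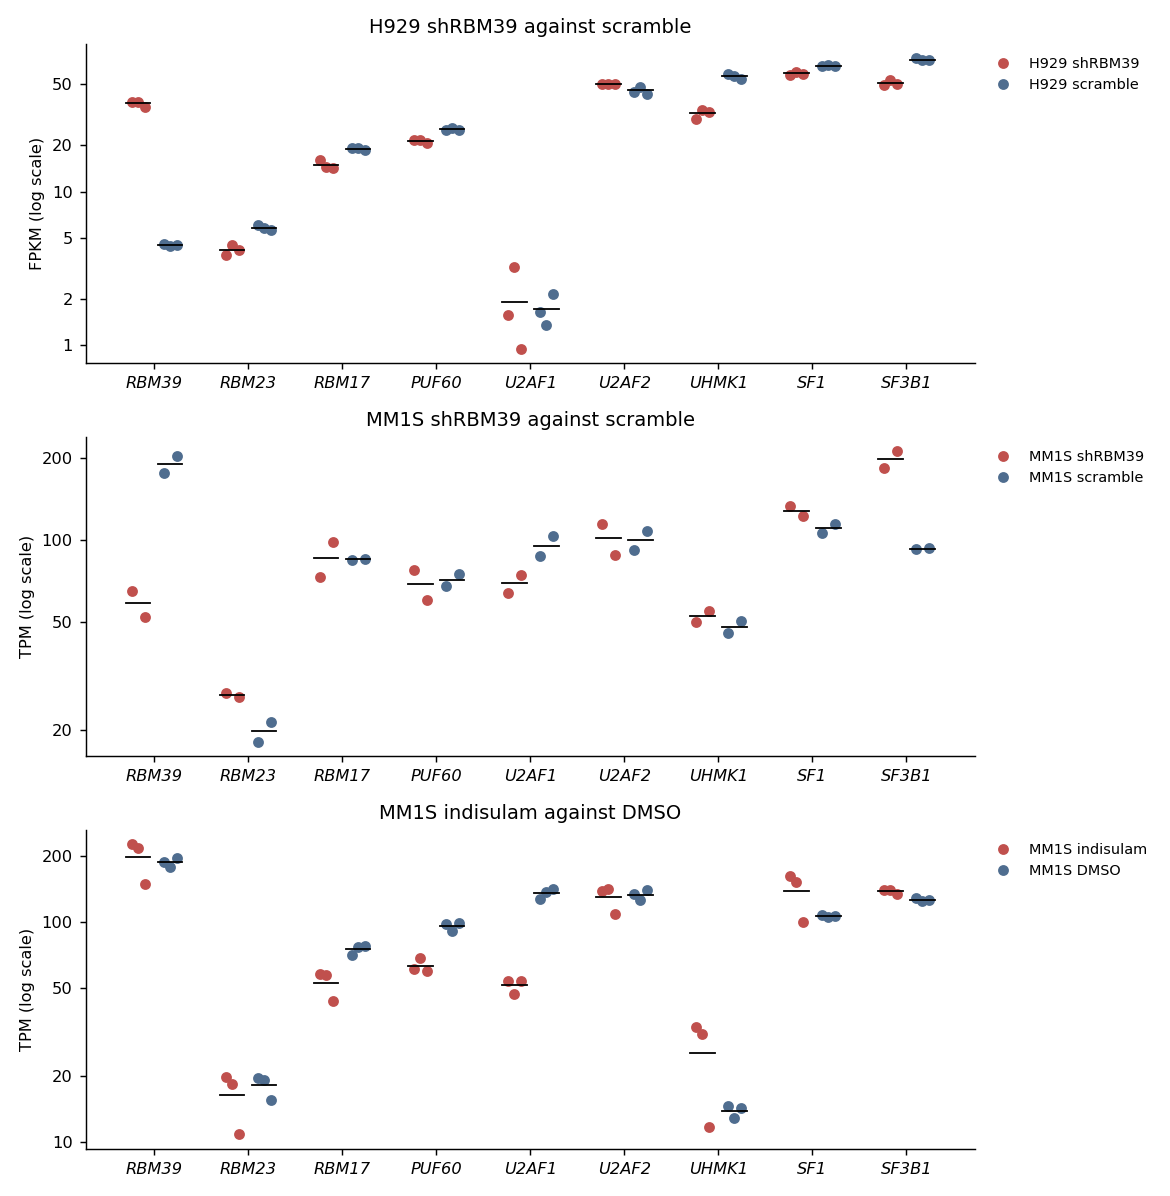
Values of the 9 genes in each expression library on a log axis, FPKM for H929 and TPM for both MM1S tables, with the shRBM39 or indisulam libraries in red left of the scramble or DMSO libraries in blue and a bar at each mean. RBM39 lies near 38 FPKM in H929 libraries labelled shRBM39 and near 4.5 FPKM in those labelled scramble, and the order turns round with shRBM39 in MM1S, while indisulam and DMSO libraries overlap.

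RBM23, the paralog of RBM39, stood opposite to it in both knockdown tables. It had 3.87, 4.50 and 4.17 FPKM in the H929 libraries labelled shRBM39, against 6.09, 5.81 and 5.58 FPKM in those labelled scramble. All 3 lay below every scramble library, and RBM23 fell by 0.40 on the log2 scale (SE 0.0685, limma adjusted p = 0.000157), and still passed at a smaller difference of -0.25 after median scaling and -0.24 after quantile normalization. In MM1S it had 27.3 and 26.4 TPM with shRBM39, against 18.2 and 21.5 TPM with scramble. Here the shRBM39 libraries lay higher without overlap, at a log2 difference of 0.42 that did not pass (95% interval 0.05 to 0.80, limma adjusted p = 0.121). With indisulam RBM23 had 19.8, 18.3 and 10.8 TPM, against 19.5, 19.2 and 15.4 TPM with DMSO. These ranges overlapped (log2 fold change -0.17, 95% interval -0.74 to 0.39, limma adjusted p = 0.611). Without indisulam replicate 3 the log2 fold change was 0.08 (limma adjusted p = 0.56).

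The ratio of the paralogs was taken within each library, which removes any scale a library shares from the linear ratios. The log2 ratios tested were log2((RBM39 + 1)/(RBM23 + 1)), which remove that scale only in part at low values. RBM39 was at 9.90, 8.57 and 8.53 times the FPKM of RBM23 in H929 libraries labelled shRBM39, against 0.749, 0.764 and 0.808 times in those labelled scramble. RBM39 was thus the more abundant paralog in libraries labelled shRBM39 and the less abundant in those labelled scramble. The mean log2 ratio differed by 3.21 (exact permutation test, two-sided, p = 0.1, the smallest that 3 against 3 allows). In MM1S the ratio of TPM was 2.37 and 1.98 with shRBM39, against 9.70 and 9.53 with scramble. The mean log2 ratio was -2.12 relative to scramble (exact permutation test, two-sided, p = 0.333, the smallest that 2 against 2 allows). With indisulam the ratios were 11.5, 11.9 and 13.9, against 9.67, 9.30 and 12.7 with DMSO. They overlapped (difference in mean log2 ratio 0.23, exact permutation test, two-sided, p = 0.3).

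**Figure D2:**
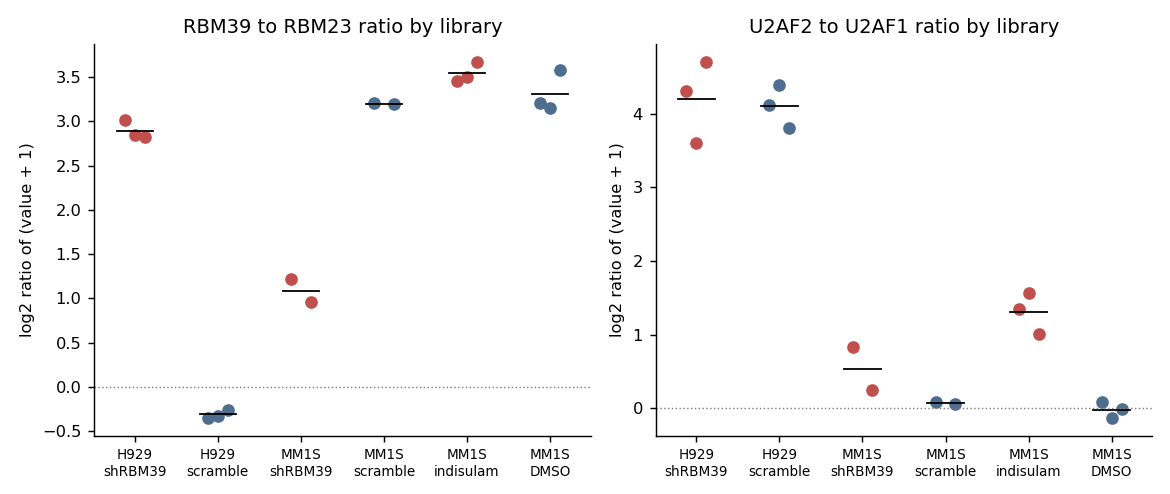
Log2 ratios of RBM39 to RBM23 and of U2AF2 to U2AF1 (without U2AF1L5) within each library, on values + 1. The shRBM39 or indisulam libraries are in red, left of the scramble or DMSO libraries in blue. RBM39 to RBM23 sits between 2.82 and 3.01 in H929 libraries labelled shRBM39 and between -0.35 and -0.26 in those labelled scramble, and U2AF2 to U2AF1 sits between 1.01 and 1.56 with indisulam and between -0.13 and 0.08 with DMSO.

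U2AF1 carried the largest change of the 9 genes under indisulam. It had 54.1, 47.2 and 53.8 TPM with indisulam, against 127, 138 and 142 TPM with DMSO. Every indisulam library lay below every DMSO library, replicate 3 among them. U2AF1 fell by 1.38 on the log2 scale (SE 0.0976, limma adjusted p = 0.000182), and by 1.40 without indisulam replicate 3 (limma adjusted p = 1.2e-05).

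Reads of U2AF1 and its near-identical copy U2AF1L5 cannot be assigned with certainty, so the value of either entry depends on how the authors' counting split them. U2AF1L5 had 81.9, 79.0 and 77.2 TPM with indisulam, against 186, 198 and 206 TPM with DMSO. It fell by 1.30 (limma adjusted p = 0.000129), and its share of the summed TPM was 59.0% to 62.6% with indisulam and 59.0% to 59.4% with DMSO. The sum of both was 131 ± 4.92 TPM with indisulam and 332 ± 17.8 TPM with DMSO (SD, n = 3 each). As 1 gene they fell by 1.33 on the log2 scale (SE 0.0786, limma adjusted p = 0.000111). U2AF1L4, a related gene with its own locus, had 20.8, 21.0 and 17.2 TPM with indisulam and 20.1, 22.4 and 18.9 TPM with DMSO, which overlapped.

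Under shRBM39 in MM1S, U2AF1 had 64.1 and 74.6 TPM, against 87.4 and 103 TPM with scramble. The libraries did not overlap, but the log2 difference of -0.45 did not pass (95% interval -0.83 to -0.07, limma adjusted p = 0.113). U2AF1 and U2AF1L5 together had 187 and 182 TPM with shRBM39, against 255 and 306 TPM with scramble. That log2 difference of -0.60 did not pass either (limma adjusted p = 0.0529). In H929, U2AF1 was low, at 1.57, 3.22 and 0.947 FPKM in libraries labelled shRBM39 and 1.64, 1.35 and 2.16 FPKM in those labelled scramble. The groups overlapped (log2 fold change 0.03, 95% interval -0.73 to 0.80, limma adjusted p = 0.926). The share of U2AF1L5 there swung between 36.2% and 93.1% in the libraries labelled shRBM39 and between 48.9% and 83.6% in those labelled scramble. The sum of both was low too, and it varied. It was 3.65, 5.05 and 13.7 FPKM in libraries labelled shRBM39 and 3.21, 8.25 and 5.15 FPKM in those labelled scramble. The H929 table thus gives no stable level for either copy or for their sum.

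**Figure D3:**
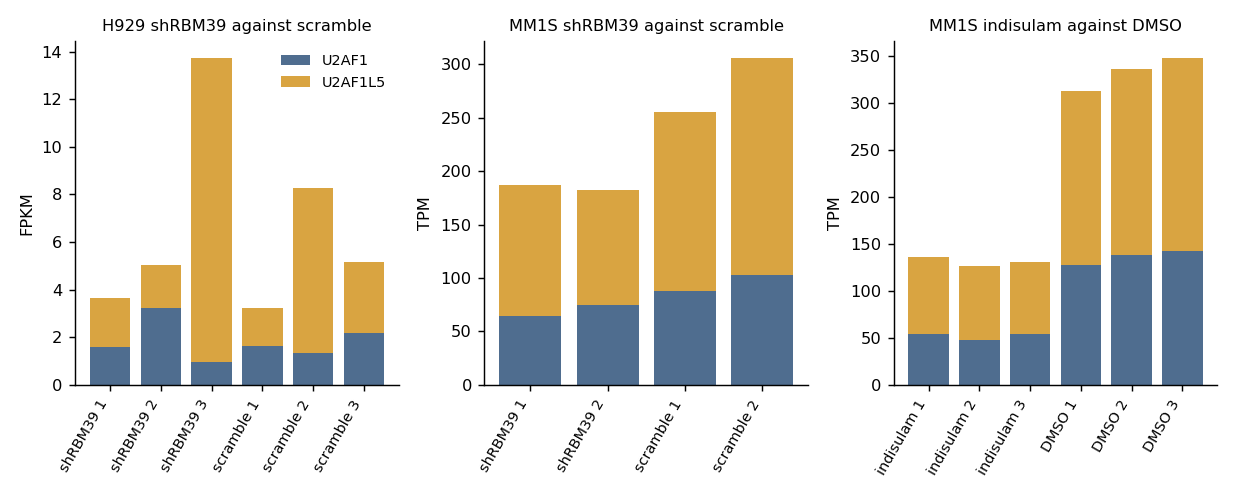
Stacked values of U2AF1 and U2AF1L5 in each expression library, in FPKM for H929 and TPM for MM1S. The sum is 126 to 136 TPM with indisulam and 313 to 348 TPM with DMSO at a nearly constant split, while in H929 the split and the sum vary from library to library.

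U2AF2, the large subunit of the heterodimer, had 139, 142 and 109 TPM with indisulam, against 134, 125 and 141 TPM with DMSO. The ranges overlapped (log2 fold change -0.05, 95% interval -0.33 to 0.23, limma adjusted p = 0.791), and without indisulam replicate 3 the log2 fold change was 0.07 (limma adjusted p = 0.348). U2AF2 was therefore at 2.56, 3.00 and 2.03 times the TPM of U2AF1 with indisulam, against 1.06, 0.911 and 0.989 times with DMSO. The mean log2 ratio differed by 1.33 without overlap (exact permutation test, two-sided, p = 0.1, the smallest possible). This ratio takes U2AF1 alone, so its level depends on how reads were split with U2AF1L5. The copies summed to 332 ± 17.8 TPM with DMSO, beside 133 ± 7.61 TPM for U2AF2. With indisulam they summed to 131 ± 4.92 TPM, beside 130 ± 17.9 TPM for U2AF2 (SD, n = 3 each).

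The knockdown tables gave smaller differences of this ratio. In MM1S the log2 ratio of U2AF2 to U2AF1 was 0.83 and 0.24 with shRBM39, against 0.08 and 0.06 with scramble, higher without overlap (difference 0.46, exact permutation test, two-sided, p = 0.333, the smallest possible). In H929 it was 4.31, 3.60 and 4.71 in libraries labelled shRBM39, against 4.12, 4.39 and 3.81 in those labelled scramble, which overlapped (difference 0.10, exact permutation test, two-sided, p = 0.9). U2AF2 itself had 49.98, 50.3 and 49.9 FPKM in the H929 libraries labelled shRBM39, against 44.8, 48.2 and 43.5 FPKM in those labelled scramble. It passed as higher (log2 fold change 0.14, limma adjusted p = 0.0186), but not without scramble replicate 1 (adjusted p = 0.0631) or scramble replicate 3 (adjusted p = 0.0926). The difference was 0.31 after median scaling (adjusted p = 9.54e-05) and 0.23 after quantile normalization (limma adjusted p = 0.000663). In MM1S it had 115 and 88.3 TPM with shRBM39, against 92.2 and 108 TPM with scramble, which overlapped (log2 fold change 0.01, 95% interval -0.43 to 0.45, limma adjusted p = 0.971).

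RBM17 (SPF45) and PUF60, UHM proteins that bind SF3B1, were lower with indisulam. PUF60 had 61.1, 68.6 and 59.6 TPM with indisulam, against 98.0, 91.0 and 99.3 TPM with DMSO. The groups lay apart, and PUF60 fell by 0.60 on the log2 scale (SE 0.096, limma adjusted p = 0.0039), a call that held in all 14 alternatives tried, with the smallest difference, -0.38, after quantile normalization. RBM17 had 58.0, 57.3 and 43.7 TPM with indisulam, against 70.9, 77.2 and 77.5 TPM with DMSO. It fell by 0.51 (SE 0.132, limma adjusted p = 0.0261) without overlap, and by 0.38 without indisulam replicate 3 (limma adjusted p = 0.00151). After quantile normalization the RBM17 difference was -0.29 (adjusted p = 0.0219). The RBM17 call ended without any 1 of the 3 DMSO libraries (adjusted p = 0.0723 to 0.106).

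In the H929 libraries labelled shRBM39 both were also lower. RBM17 had 16.2, 14.5 and 14.2 FPKM there, against 19.3, 19.2 and 18.5 FPKM in libraries labelled scramble. It fell by 0.33 on the log2 scale without overlap (limma adjusted p = 0.000194), with a difference of -0.16 after median scaling (adjusted p = 0.0295) and -0.17 after quantile normalization (adjusted p = 0.0178). PUF60 had 21.5, 21.6 and 20.8 FPKM, against 25.1, 26.1 and 25.1 FPKM in libraries labelled scramble. PUF60 fell by 0.24 (limma adjusted p = 0.000409), but lost the call after median scaling of the libraries (adjusted p = 0.198) or quantile normalization (adjusted p = 0.0953). In MM1S with shRBM39, RBM17 had 73.2 and 98.4 TPM and PUF60 77.4 and 60.5 TPM, against 84.5 and 85.4 TPM for RBM17 and 67.8 and 75.1 TPM for PUF60 with scramble. Both overlapped, with 95% intervals of the log2 fold change of -0.44 to 0.44 for RBM17 and -0.48 to 0.36 for PUF60.

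UHMK1, the kinase that phosphorylates SF1, differed in direction and in certainty between the tables. In H929 it had 29.8, 34.2 and 33.0 FPKM in libraries labelled shRBM39, against 58.5, 56.7 and 54.3 FPKM in those labelled scramble. UHMK1 fell by 0.79 on the log2 scale (SE 0.0548, limma adjusted p = 3.89e-08), after RBM39 the gene of the 9 with the largest difference there. With indisulam it had 33.1, 31.0 and 11.7 TPM, against 14.5, 12.8 and 14.2 TPM with DMSO. Replicates 1 and 2 lay above every DMSO library and replicate 3 below them, and the log2 difference of 0.70 did not pass (SE 0.366, limma adjusted p = 0.191). Without replicate 3 UHMK1 passed as higher, by 1.16 (SE 0.0852, limma adjusted p = 3.02e-05), and with all libraries after median scaling (0.71, adjusted p = 0.0419) or quantile normalization (0.79, adjusted p = 0.0438). In MM1S with shRBM39 it had 50.1 and 54.7 TPM, against 45.5 and 50.4 TPM with scramble, which overlapped (95% interval -0.20 to 0.46).

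SF1, the branch point binding protein, had 162, 152.5 and 99.9 TPM with indisulam, against 108, 105 and 107 TPM with DMSO. As for UHMK1, replicates 1 and 2 were above and replicate 3 below all DMSO libraries, and SF1 did not pass with all libraries (log2 fold change 0.34, 95% interval -0.08 to 0.76, limma adjusted p = 0.192). Without indisulam replicate 3 it passed as higher, by 0.56 (SE 0.0547, limma adjusted p = 0.000101), and with all libraries after median scaling (0.35, adjusted p = 0.036) or quantile normalization (0.62, adjusted p = 0.0157). In H929 it had 57.3, 60.5 and 58.4 FPKM in libraries labelled shRBM39, against 66.1, 66.7 and 65.3 FPKM in those labelled scramble. SF1 fell by 0.17 (limma adjusted p = 0.00243) as deposited, but lay at 0.01 after median scaling, and its difference was -0.03 relative to the median gene. In MM1S it had 134 and 122 TPM with shRBM39, against 107 and 114 TPM with scramble, higher without overlap but not past the test (log2 fold change 0.21, 95% interval -0.10 to 0.52, limma adjusted p = 0.299).

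SF3B1, the U2 snRNP subunit whose ligand motifs the UHM proteins bind, rose in MM1S with shRBM39. It had 184 and 212 TPM with shRBM39, against 92.5 and 93.4 TPM with scramble. The log2 fold change was 1.08 (SE 0.128, limma adjusted p = 0.0165), and the call ended without scramble replicate 1 (adjusted p = 0.172) or 2 (adjusted p = 0.149). In H929 the order was the other way, with 49.4, 52.9 and 49.9 FPKM in libraries labelled shRBM39 and 73.5, 71.8 and 71.8 FPKM in those labelled scramble. SF3B1 fell there by 0.50 (SE 0.0428, limma adjusted p = 2.39e-07), with a difference of -0.33 after median scaling (adjusted p = 1.54e-05). With indisulam it had 140, 140 and 134 TPM, against 129, 125 and 125 TPM with DMSO. The indisulam libraries lay slightly higher without overlap, at a log2 difference of 0.12 that did not pass (95% interval -0.05 to 0.30, limma adjusted p = 0.241). Without indisulam replicate 3 it passed, at 0.14 (limma adjusted p = 0.0368), where the median over all genes tested was 0.08. With all libraries SF3B1 passed after quantile normalization (0.41, limma adjusted p = 0.0054).

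**Figure D4:**
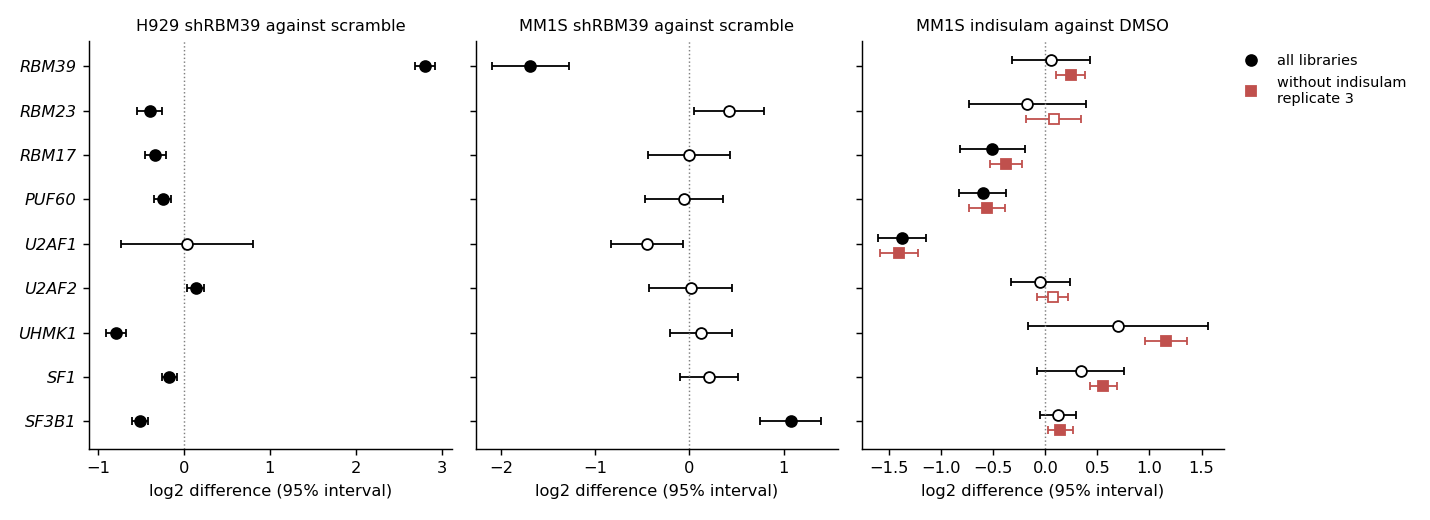
Log2 fold change on the log2(value + 1) scale of each of the 9 genes in the 3 expression comparisons, with 95% intervals from limma. Filled points passed the test, and red squares give the indisulam values without indisulam replicate 3, which for UHMK1 moved the difference to 1.16, against 0.70 with all libraries.

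Counted together, 8 of the 9 genes passed the test in H929, with RBM39 and U2AF2 above and the other 6 below scramble, where 72.2% of all 10360 genes tested passed. Of all genes, 24.1% were called higher and 48.1% lower, so the count of members lies near the background. After median scaling 53.0% of all calls were higher, against 33.4% as deposited, and 6 members passed, of which 2 were higher. In MM1S with shRBM39, 2 of the 9 passed, SF3B1 higher and RBM39 lower, where 10.3% of 14152 genes passed, 3.97% higher and 6.35% lower. None of the 9 was called without scramble replicate 1 or without scramble replicate 2 (2 at unadjusted p below 0.05 each time), and neither was any other gene (2444 and 2565 at unadjusted p below 0.05). With indisulam 3 of the 9 were called lower (RBM17, PUF60 and U2AF1) and 0 higher by limma (0 higher at unadjusted p below 0.05), where 29.9% of 13445 genes passed, 8.47% higher and 21.5% lower. Without indisulam replicate 3, 7 of the 9 passed, 4 higher and 3 lower, beside 65.7% of all genes, 36.8% higher and 29.0% lower. With all libraries, median scaling gave 2 higher and 3 lower members, and 46.2% of all calls were then higher, against 28.3% as deposited. The median log2 fold change of the 9 genes was -0.24 in H929, 0.01 in MM1S with shRBM39 and -0.05 with indisulam, beside -0.13, -0.001 and -0.05 over all genes tested. Without indisulam replicate 3 the median over all genes tested was 0.08, so small rises there lie near the median gene.

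The order of the 9 genes by level, compared within a table on its length-scaled values, placed RBM39 higher in H929 libraries labelled shRBM39 than in those labelled scramble, and lower with shRBM39 than with scramble in MM1S. In H929 libraries labelled shRBM39, SF1 was highest (58.7 ± 1.61 FPKM), SF3B1 and U2AF2 followed with overlapping ranges, then RBM39, UHMK1, PUF60, RBM17, RBM23 and U2AF1. In those labelled scramble the order was SF3B1 (72.4 ± 0.991 FPKM), SF1, UHMK1, U2AF2, PUF60, RBM17, RBM23, RBM39 and U2AF1, with no overlap between neighbours (SD, n = 3 each). With indisulam RBM39, SF1, SF3B1 and U2AF2 formed an overlapping top group, PUF60 followed, RBM17 and U2AF1 overlapped below it, and UHMK1 and RBM23 overlapped at the bottom. With DMSO RBM39 was highest (188 ± 8.89 TPM, SD, n = 3), U2AF1, U2AF2 and SF3B1 overlapped with their neighbours below it, and SF1, PUF60, RBM17, RBM23 and UHMK1 followed in separate steps. In MM1S with shRBM39, SF3B1 was highest (198 ± 19.9 TPM), SF1 second and RBM23 last (26.9 ± 0.665 TPM), with the others overlapping in a chain between U2AF2 and UHMK1. With scramble RBM39 was highest (190 ± 20.01 TPM) and RBM23 last (19.8 ± 2.33 TPM; SD, n = 2 each). U2AF1 was placed by its own values, without U2AF1L5, and its place in H929 rests on an unstable split between the copies and an unstable sum. Summed, the copies had 332 ± 17.8 TPM with DMSO and 281 ± 36.0 TPM with scramble, above RBM39 in both groups. The sum was 131 ± 4.92 TPM with indisulam and 184 ± 3.36 TPM with shRBM39.

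The genes closest to RBM39 were sought over the 16 expression libraries by the Euclidean distance of log2(value + 1) from the control mean of each table, among 6118 genes. The libraries share tables and controls, and the measure is a description. NUS1, a subunit of the enzyme that makes dolichol precursors, was nearest at 1.72, where the median gene lay at 5.73. It averaged 1.88 in H929 libraries labelled shRBM39, -1.36 with shRBM39 in MM1S and 0.23 with indisulam, beside 2.81, -1.69 and 0.05 for RBM39 itself. HPRT1, a purine salvage enzyme, came second at 2.14, and EIF2S1, a translation initiation factor subunit, followed at 2.28. With indisulam HPRT1 averaged -0.98 and EIF2S1 -0.71, away from RBM39. STK26, a kinase, lay at 2.46, and CSF2RB, the shared beta chain of cytokine receptors, at 2.47.

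Further components of 3′ splice site recognition were read from a list of 40 genes, of which all were tested in H929 and 39 in MM1S. SUGP1 was not analysed in MM1S. In H929, 13 passed as higher and 19 as lower with the shRBM39 label, beside the background of 72.2%, and the split was 15 higher and 10 lower after median scaling. PTBP1, a repressor that competes for polypyrimidine tracts, rose to 112 ± 1.15 FPKM in libraries labelled shRBM39, against 70.2 ± 1.53 in those labelled scramble (log2 fold change 0.66, limma adjusted p = 8.03e-09). HNRNPA1, a general splicing repressor, rose by 0.62 and CHERP, a U2 snRNP-associated protein, by 0.70. The strongest falls by adjusted p were in SMNDC1 (SPF30), which helps the tri-snRNP join, with 7.04 ± 0.845 FPKM in libraries labelled shRBM39 and 14.1 ± 0.465 in those labelled scramble (log2 fold change -0.92, limma adjusted p = 1.73e-07; SD, n = 3 each). BUD31, a spliceosome component, fell by 0.64 and SRPK2, a kinase of SR proteins, by 0.51.

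In MM1S with shRBM39, 1 of the 39 was called higher and 3 lower, beside 3.97% higher and 6.35% lower of all genes, and 0 were called without scramble replicate 1 or 2 by limma (5 and 4 at unadjusted p below 0.05). SRPK2 averaged 53.7 ± 2.23 TPM with shRBM39 and 29.7 ± 2.58 with scramble (SD, n = 2 each; log2 fold change 0.84, limma adjusted p = 0.0274). DDX39B (UAP56), a helicase needed for U2 snRNP binding, averaged 79.2 ± 8.03 TPM with shRBM39 and 161 ± 5.06 with scramble (log2 fold change -1.02, limma adjusted p = 0.0191). HNRNPC, which competes with U2AF2 for uridine tracts, fell by 0.75 and HNRNPA1 by 0.42.

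With indisulam 18 of the 39 were called lower and 0 higher by limma (2 higher at unadjusted p below 0.05), where 21.5% of all genes were called lower and 8.47% higher. The split was 5 higher and 14 lower after median scaling, and 9 higher and 13 lower after quantile normalization. HNRNPA1 averaged 571 ± 37.5 TPM with indisulam and 1203 ± 34.0 with DMSO (SD, n = 3 each; log2 fold change -1.07, limma adjusted p = 0.000202). SNRPA1, a U2 snRNP protein, averaged 77.0 ± 3.77 TPM with indisulam and 162 ± 4.80 with DMSO (log2 fold change -1.06, limma adjusted p = 0.000255), and DDX39A, a paralog of DDX39B, fell by 0.79. The median log2 fold change of the list was -0.25, beside -0.05 over all genes tested. Without indisulam replicate 3, 12 were higher and 19 lower, where 36.8% of all genes were higher and 29.0% lower, and HNRNPA1, SNRPA1 and DDX39A were among these 19. Leaving out DMSO replicate 1, 2 or 3 left 10, 9 and 7 calls of the list.

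In the RIP libraries, RNA of RBM39, SF3B1 and SF1 had the lowest ratios to IgG of the 9 genes. RBM39 RNA had 62.1 FPKM in the anti-RBM39 pull-down and 127 FPKM in IgG, a log2 ratio of -1.01. With 1 library each there is no test and no replicate check. Past 2-fold lay 1 of the 9 genes, RBM39 itself on the lower side, where 46.6% of 10966 genes were past 2-fold, 22.7% above and 23.9% below. After scaling both libraries to their median this count was 0, with RBM39 at -0.88. SF3B1 had 36.7 FPKM in the anti-RBM39 pull-down and 70.7 in IgG, a log2 ratio of -0.93. SF1 had 199 FPKM in the anti-RBM39 pull-down and 319 in IgG, a log2 ratio of -0.68. RBM17, PUF60 and U2AF2 had log2 ratios of -0.33, -0.25 and -0.13. RBM23, U2AF1 and UHMK1 lay at -0.04, 0.04 and 0.05, beside a median of 0.02 over all genes. After median scaling RBM23 lay at 0.09 and U2AF2 at 0.001, so neither has a settled side of IgG. Totals were 481945 FPKM in the anti-RBM39 pull-down and 653239 FPKM in IgG. Scaling to these totals was not tried, and the ratios of the other genes may also depend on the scale. No row for U2AF1L5 was used in the RIP table, so U2AF1 may hold reads of both copies there.

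**Figure D5:**
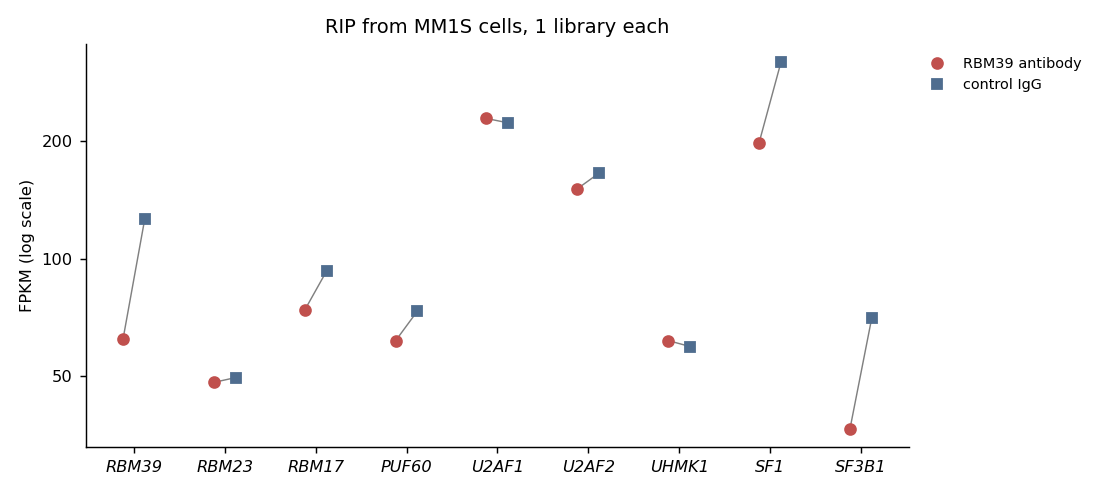
FPKM of the 9 genes in the anti-RBM39 pull-down and in the IgG pull-down on a log axis, with 1 library each and no error, joined by a line for each gene. The lines climb most steeply to IgG for RBM39, at a log2 ratio of -1.01, and for SF3B1, at -0.93.

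Of the 40 further components, 8 lay more than 2-fold above IgG and 11 more than 2-fold below, beside 22.7% above and 23.9% below of all genes, with a median log2 ratio of -0.13. DHX16, a helicase of the activated spliceosome, had 36.3 FPKM in the anti-RBM39 pull-down and 11.5 in IgG (log2 ratio 1.58). HTATSF1, a UHM protein that binds SF3B1, had 144 FPKM in the anti-RBM39 pull-down and 53.8 in IgG (log2 ratio 1.40). The nuclear envelope protein LEMD3 had a log2 ratio of 1.28. At the low end, the small SF3b subunits SF3B5 and SF3B6 had log2 ratios of -4.12 and -3.85, with 2.65 and 8.00 FPKM in the anti-RBM39 pull-down and 62.3 and 129 FPKM in IgG. SMNDC1 lay at -2.45.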

How the data were processed

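RNA values of 16 expression libraries and 2 RIP libraries were used as deposited. Per the labels' protocols, TRIzol RNA went into libraries made with a SMARTER kit. The H929 and RIP tables were taken as FPKM made by the authors, from the column headers for RIP and from the deposited name for H929. Both MM1S expression tables are named FPKM, but they hold TPM as deposited: the sum is the same in each column. The design had assumed either unit, and the same test served both. The sources used here give no aligner, counting tool or strandedness. Per the submitters' processing notes, the builds are GRCm38 and mm10, both of mouse, while cells and symbols are human, so coordinates come from RefSeq only.

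Each comparison was fitted within its table with limma 3.58.1 (R 4.3.3, trend and robust) on log2(value + 1) with two-sided tests. Genes entered when the number of libraries at 1 or more reached the size of the smaller group, and calls needed an adjusted p (Benjamini-Hochberg, over all genes tested) under 0.05. Ratios within libraries, as log2 ratios of values + 1, had exact permutation tests, and RIP values gave log2((RBM39 + 1)/(IgG + 1)) with a 2-fold limit. The fit was tested on simulated data. Fold changes on this scale understate those of low genes. Alternatives changed the pseudocount, filter, scaling, moderation, replicate block and libraries used; summing U2AF1 with U2AF1L5 and a crossed block were added after seeing the data.

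Groups follow the labels; "In" was read as indisulam from the series' design text, and MM1S numbers as replicates. Column names matched samples, with 0 sample columns left unmatched. Rows without a gene name (834 and 473) held 0.436% to 0.459% and 0.174% to 0.237% of TPM and stayed out of the tests. SF3B6 was matched in RIP by an older symbol. The 9 genes and all lists were chosen with earlier results of these data known. Named genes are the 9, their copies, up to 3 called genes of the list of 40 per direction by adjusted p, the 3 highest and 3 lowest in RIP, and the 5 nearest to RBM39.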

Additional observations from a re-analysis of the deposited data

Results flagged for a closer look

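Of the 9 genes, 4 moved one way in every H929 library labelled shRBM39 and the opposite way in every MM1S shRBM39 library, relative to their own scramble libraries. The difference between the lines was not tested, since the tables were normalized separately. How many of all genes tested had this pattern was not counted, so the 4 of 9 has no background to be set against. The pattern was not particular to the 9. Most of the further components tested in both lines also had it, DDX39B (0.30 in H929, -1.02 in MM1S) and SRPK2 (-0.51 and 0.84) among them. Fewer, such as QKI (-0.63 and -0.55), fell in both lines without overlap. The rest overlapped in H929 or in MM1S. RBM39 had a log2 fold change of 2.81 in H929 and -1.69 in MM1S. The values of its paralog RBM23 were -0.40 in H929 and 0.42 in MM1S. SF1 lay at -0.17 in H929 and 0.21 in MM1S, and SF3B1 at -0.50 in H929 and 1.08 in MM1S. After median scaling SF1 in H929 lay at 0.01. In H929 the RBM39 value goes against the label of the libraries, and whether the H929 groups were exchanged was not tested. The 4 genes were picked for their opposite signs, so turning H929 round would match all 4 to MM1S by construction. The MM1S values of RBM23 and SF1 did not pass the test.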

How the results depend on the processing

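For the 9 genes in the expression comparisons, 319 of 362 alternative values kept their direction and side of the threshold, 16 lost a call, 10 gained one and 17 changed sign. PUF60 and U2AF1 under indisulam were called in every alternative tried, as were RBM39, RBM23, RBM17, UHMK1 and SF3B1 in H929. Sign changes in expression outside left-out libraries were in SF1 in H929 (0.011 with median scaling), in MM1S shRBM39 RBM17 (0.088 with quantile normalization, 0.044 with median scaling) and PUF60 (0.021 with quantile normalization), in U2AF2 with indisulam (0.25 with quantile normalization) and in the H929 ratio of U2AF2 to U2AF1 (-0.13 with copies summed). Leaving out 1 library at a time gave log2 ranges of -0.27 to 0.29 for U2AF1 in H929, -0.15 to 0.40 for that ratio, -0.21 to 0.21, -0.24 to 0.12 and -0.17 to 0.20 for RBM17, PUF60 and U2AF2 in MM1S shRBM39, and -0.056 to 0.24, -0.33 to 0.079 and -0.11 to 0.071 for RBM39, RBM23 and U2AF2 with indisulam. The causes were not tested.

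In MM1S shRBM39, 2 of the 9, 4 of the further components and 1461 genes were called. Without a filter the counts were 0, 0 and 0 by limma, with 4, 15 and 4966 at unadjusted p below 0.05. Left-out libraries gave 0 to 2, 0 to 5 and 0 to 1769, and without trend and robust moderation 2 components were called. The replicate block gave 1, 0 and 255 calls (8 components at unadjusted p below 0.05), with SF3B1 at an adjusted p of 0.0521. Whether numbers pair libraries was not settled. Same-number deviations correlated at 0.129, -0.000441 and 0.0253 in H929, -0.142 in MM1S shRBM39 and 0.137, -0.148 and -0.0255 with indisulam. Different-number deviations reached 0.107 in H929, 0.142 in MM1S shRBM39 and 0.182 with indisulam. With 2 or 3 libraries a group, deviations from the group mean depend on each other, so these values cannot exclude pairing. A crossed block in MM1S shRBM39 called 2 components and 772 genes.

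With indisulam, 3 of the 9 were called, against 7 with quantile normalization (4 higher, 3 lower) and 5 with median scaling (2 higher, 3 lower). Left-out libraries gave 2 to 7 of the 9, 7 to 31 components and 2001 to 8839 genes. Of all indisulam calls 28.3% were higher as deposited, 52.1% with quantile normalization and 46.2% with median scaling. RBM17 lost its call without a filter (adjusted p = 0.0687) and with the replicate block (adjusted p = 0.0505). In RIP, 0 of the 9 passed 2-fold with median scaling, against 1, and RBM23 (0.092) and U2AF2 (0.001) turned sign with it. Depth is unknown in MM1S, and RIP with 1 library each gives no error.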
